A study of Mus musculus with 5 samples.

Results

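The Wnt genes described here were 68 of the 24421 genes counted by RNAseq in mouse kidney cortex, chosen by gene symbol alone: 19 Wnt ligands, 2 genes of ligand secretion, 10 Frizzled receptors, 4 co-receptors, 10 secreted antagonists, 9 genes of the R-spondin axis, 10 cytoplasmic transducers or regulators and 4 transcription factors. The rule itself uses no expression value, but it was written with earlier results of these data known. Of the 68 genes, 51 had enough counts to be tested between genotypes and 17 did not.

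Cortical kidney tissue was taken from 3 *Fnip1* null mice (*Fnip1*-/-, mice 8637, 9210 and 9121) and 2 wildtype mice (mice 9055 and 9056), all of strain C57BL6J, flash frozen and untreated, with 1 library per mouse. *Fnip1* encodes an adapter that binds Folliculin and AMP kinase, and the null allele arose by ENU mutagenesis, so it was carried by every cell of the body and not by the kidney epithelium alone. The labels give the wildtype mice as *Fnip1*+/+, whereas the study's text calls its controls *Fnip1*+/-. For mouse 9210 the sample title and the name of its count file give different mouse numbers, and the number of the title is used here. An age range was stated for the RNAseq mice together and no age or sex for any mouse.

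Wnt proteins are lipid-modified ligands that bind Frizzled receptors. In the canonical branch, a Wnt brings Frizzled together with Lrp5 or Lrp6, Dishevelled takes Axin to the membrane, and beta-catenin escapes the Axin, Apc and Gsk3b complex that otherwise marks it for destruction, to act with TCF and LEF factors in the nucleus. Secreted antagonists block the ligands or Lrp5 and Lrp6, while R-spondins acting with Lgr receptors keep the ligases Znrf3 and Rnf43 from removing Frizzled. In the kidney, Wnt9b and Wnt4 drive the formation of nephrons, Wnt7b shapes the medulla, and the pathway is known to become active again after tubular injury and in fibrosis.

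Gene counts per mouse ran from 15799114 to 19132145, so that 3 counts corresponded to 0.158 to 0.186 CPM (counts scaled to library size, normalized by the TMM method). *Fnip1* was at 21.0, 16.9 and 16.0 CPM in the null mice 8637, 9210 and 9121 and at 51.8 and 48.7 CPM in the wildtype mice 9055 and 9056, a log2 fold change of -1.48 (SE 0.138, adjusted p = 0.0330 by edgeR's quasi-likelihood test). Mouse 9121 stood apart from the other 4 in a further respect: *Xist* was at 314 CPM in it and at 0.172 to 1.41 CPM in the others, and 4 Y-linked genes summed to 0.370 CPM in it and to 127 to 145 CPM in the others. That is the pattern of a female for null mouse 9121 and of males for the other 4, though the labels give no sex. The summed markers of podocytes, 691 to 809 CPM in null and 387 to 390 CPM in wildtype mice, did not overlap between the genotypes, nor did those of distal convoluted tubule (1526 to 1741 against 1090 to 1279), collecting duct (816 to 1183 against 656 to 678), proximal tubule (9722 to 11953 against 12625 to 13883) and tubular injury (1931 to 2805 against 809 to 822). *Spp1* made up most of the tubular injury sum, at 1906, 2774 and 2636 CPM in null and 794 and 813 CPM in wildtype mice. *Havcr1* and *Vcam1* of that list overlapped between the genotypes. Of the 8 proximal tubule markers 3 had a positive log2 fold change, *Slc5a2*, *Slc5a12* and *Slc7a7*, each without overlap. The adipocyte markers summed to 54.3 to 357 CPM in null and 36.1 to 36.7 CPM in wildtype mice, also without overlap, and the 5 of them tested had a median log2 fold change of 3.36. In null mouse 8637 most of that sum was *Fabp4*, at 48.4 CPM, beside 31.8 and 25.1 CPM in wildtype mice. *Adipoq*, *Cfd*, *Plin1*, *Retn* and *Cidec* overlapped between the genotypes. The sums of thick ascending limb, medulla and leukocyte markers overlapped. Of the 13 leukocyte markers tested, 12 had a positive log2 fold change, with a median of 1.35 for the list. *Csf1r*, the largest term of that sum, lay the other way, at 38.2, 36.4 and 63.9 CPM in null and 72.4 and 68.4 CPM in wildtype mice. No marker was at 0 in all mice, and the markers of proximal tubule, the bulk of the cortex, had the highest sum in 4 of the 5. The p-values given here rest on the spread between mice of the same genotype, with no covariate for the difference of mouse 9121. That spread was uneven. The log2 levels of the 2 wildtype mice correlated at 0.993, and those of pairs of null mice at 0.974 to 0.987.

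Among the 51 Wnt genes tested, 2 passed an FDR of 5% with a change of at least 2-fold by the quasi-likelihood test, beside 0.526% of all 13874 genes tested. Both were secreted antagonists, and they moved in opposite directions: *Frzb* fell and *Wif1* rose in *Fnip1* null kidney. Both entered the choice of genes by name, and the study had already reported Frizzled B as lower and *Wif1* as higher in null kidneys. Their share beside that of all genes therefore cannot be read as an excess among Wnt genes. At an FDR of 5% without a fold minimum, 0.151% of all genes were lower and 0.526% higher in null mice. No ligand, receptor, co-receptor, R-spondin gene, cytoplasmic gene or transcription factor passed this test, which called 11 of the 51 at an unadjusted p under 0.05 (21.6%, beside 25.1% of all genes), 8 of them higher in null mice (beside 14%) and 3 lower (beside 11.2%). The edgeR exact test called 4 of the 51, beside 4.07% of all genes, adding the ligand *Wnt4* and the R-spondin *Rspo3*, both higher in null mice. At an FDR of 5% alone the exact test had 3 of the 51 higher, beside 6.16% of all genes, and 1 lower, beside 3.62%. DESeq2 called 3 of the 51, beside 3.55% of all genes.

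**Figure D1:**
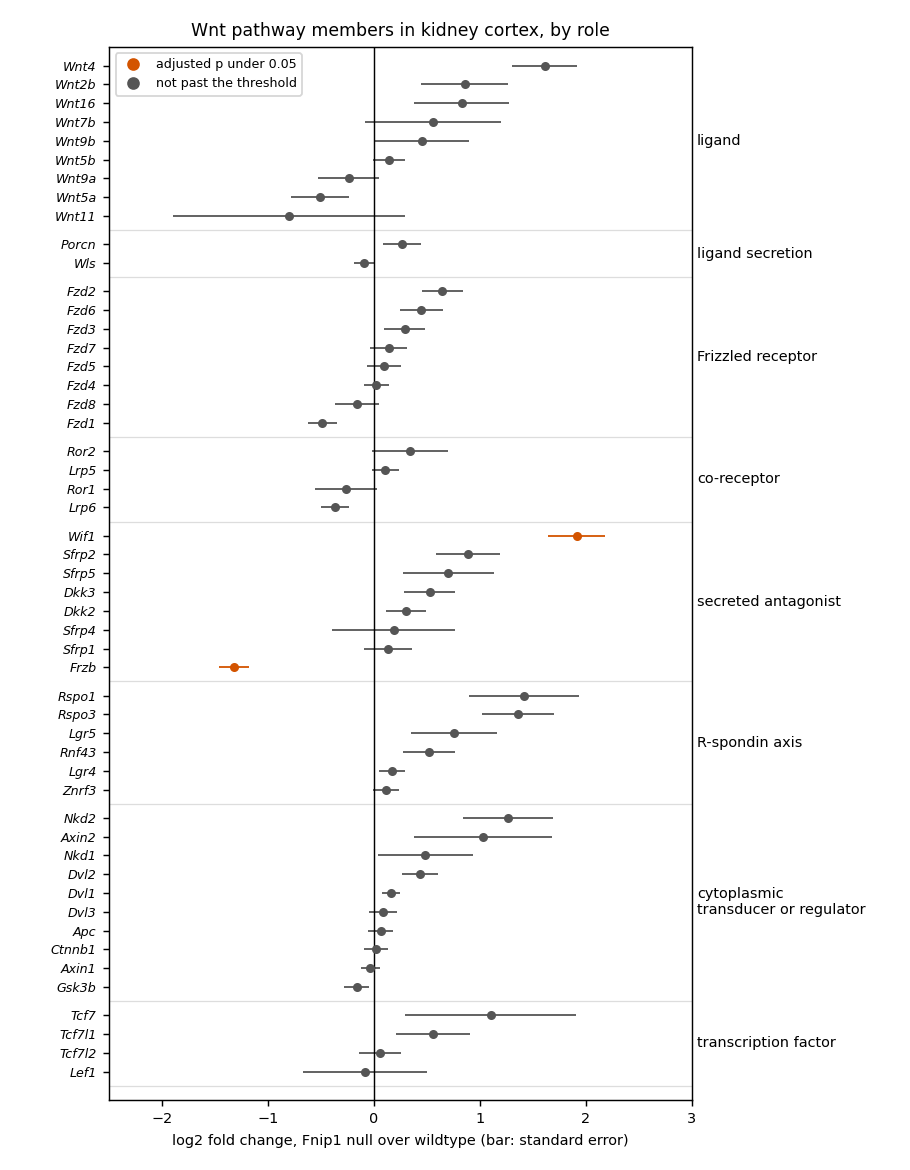
Log2 fold change (*Fnip1* null against wildtype, horizontal axis) of the 51 Wnt genes tested, grouped by role, with bars of 1 standard error. *Frzb* at -1.32 and *Wif1* at 1.92, the 2 genes past an FDR of 5% with a 2-fold change, lie at opposite ends of the antagonists, and 39 of the 51 points lie to the right of 0.

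*Frzb* encodes a secreted Frizzled-related protein that binds Wnt ligands outside the cell. It lies at chr2:80411970-80447625 on the minus strand (GRCm38, GENCODE M21). RefSeq places the start further in, at position 80447396 of chromosome 2. A stretch that precedes the RefSeq start but lies within the GENCODE gene is shown because it holds the 6-letter core of TCF and LEF binding sequences, CTTTGA, on the opposite strand. The capitals mark its complement, whose first base lies 95 bases before the RefSeq start. The stretch is chr2:80447473-80447502 on the minus strand (RefSeq, GRCm38.p6).
Frzb: cccctgaaaacTCAAAGccttctcggaagg

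*Wif1* encodes Wnt inhibitory factor, which is unrelated to the Frizzled-related proteins and also binds Wnt ligands directly. It lies at chr10:121033960-121100650 on the plus strand. The bases before this start, chr10:121033754-121033959 on the plus strand, are shown because they hold CACGTG (the same letters on both strands), the E-box bound by basic helix-loop-helix factors that include the MiT/TFE family kept in check by the Folliculin complex. The capitals mark it, with its first base 210 bases before the RefSeq start at position 121034004.
Wif1: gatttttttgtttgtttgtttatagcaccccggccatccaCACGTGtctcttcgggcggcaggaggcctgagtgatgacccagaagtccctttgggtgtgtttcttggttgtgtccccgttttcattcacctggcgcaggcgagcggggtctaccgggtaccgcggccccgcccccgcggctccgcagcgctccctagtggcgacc

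A RefSeq promoter window was found for 34 of the 51 genes tested. In the 250 bases before the RefSeq start, CTTTGA occurred on either strand in 7 of these 34 (*Frzb*, *Fzd1*, *Gsk3b*, *Lef1*, *Ror1*, *Wnt11* and *Wnt5b*; 20.6%), beside 15.8% of 27025 promoters, and CACGTG in 4 (*Dvl2*, *Lef1*, *Wif1* and *Wnt9a*; 11.8%), beside 6.86%. The TCF letters and the E-box letters do not overlap each other. A match is a run of letters and was not measured as a binding site.

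*Frzb* was at 22.2, 16.5 and 18.1 CPM in null mice 8637, 9210 and 9121 and at 47.5 and 47.0 CPM in wildtype mice 9055 and 9056. Each null mouse was well below both wildtype mice, and the groups did not overlap. The means were 18.9 ± 2.94 CPM (SD, n = 3) and 47.2 ± 0.402 CPM (SD, n = 2), a log2 fold change of -1.32 (SE 0.142, adjusted p = 0.0354). In this bulk tissue, fewer cells of a type that makes a transcript and less of it per cell cannot be told apart, for *Frzb* and for every gene that follows.

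*Wif1* was at 3.54, 3.39 and 3.27 CPM in the null mice and at 1.06 and 0.744 CPM in the wildtype mice, on 57 to 62 counts against 13 to 17. The null mice lay close together and all above the wildtype mice. Means were 3.40 ± 0.131 CPM (SD, n = 3) and 0.900 ± 0.221 CPM (SD, n = 2), a log2 fold change of 1.92 (SE 0.269, adjusted p = 0.0495). *Wif1* lay at the edge of the threshold, with an adjusted p of 0.0501 by the legacy quasi-likelihood method and of 0.0524 with no filter on low counts.

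Leaving out 1 mouse at a time kept the direction of both genes. *Frzb* ran from -1.45 to -1.23 on the log2 scale, with an adjusted p of 0.00373 without 8637 and 0.0251 without 9121, but 0.125 without 9210, 0.216 without 9055 and 0.508 without 9056. *Wif1* ran from 1.68 to 2.18, with an adjusted p of 0.0148 without 8637 and 0.0467 without 9121, but 0.189 without 9210, 0.216 without 9055 and 0.540 without 9056. Without 9210, 9055 or 9056 the quasi-likelihood test called no gene at all, and 7, 12 and 4 Wnt genes had an unadjusted p under 0.05 (beside 14.9%, 17.6% and 8.71% of all genes). Without 8637 it called 963 of the 14130 genes that the filter then kept, 6.82%, at an FDR of 5% and 2-fold. With no fold minimum, the adjusted p without 8637 was also under 0.05 for *Wnt4*, *Rspo3* and *Sfrp2*. The same held for *Lrp6* (0.0175, log2 fold change -0.49), *Fzd6* (0.0218, log2 fold change 0.62), *Dkk2* (0.0271, log2 fold change 0.47) and *Dvl2* (0.0417, log2 fold change 0.55). The share of all genes at that threshold is not given. At an unadjusted p under 0.05 by the quasi-likelihood test without 8637 there were 21 of the 51 Wnt genes, beside 38% of all genes.

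**Figure D2:**
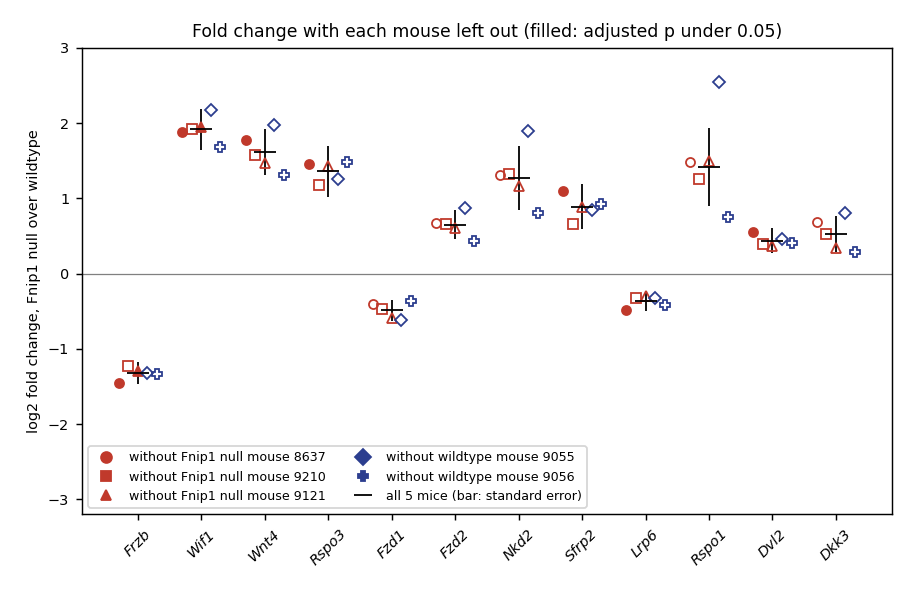
Log2 fold change (*Fnip1* null against wildtype) of the 12 Wnt genes with the smallest p, with all 5 mice (line, with a bar of 1 standard error) and with each mouse left out in turn (symbols, filled where the adjusted p was under 0.05). *Frzb* remained between -1.45 and -1.23 and *Wif1* between 1.68 and 2.18, and the symbols of both are filled without 8637 and without 9121 and open without each of the others.

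The other 8 secreted antagonists were of the Frizzled-related (*Sfrp*) family, which trap Wnt ligands as *Frzb* does, or of the Dickkopf (*Dkk*) family, whose founding members block Lrp5 and Lrp6. *Sfrp2* was at 4.01, 7.55 and 5.81 CPM in null mice 8637, 9210 and 9121 and at 3.04 and 3.20 CPM in wildtype mice, not overlapping, with a log2 fold change of 0.89 (SE 0.301, adjusted p = 0.147). Without mouse 8637 its change was 1.09, with an adjusted p of 0.0268. *Dkk3*, a divergent Dickkopf, was at 32.0, 42.2 and 51.9 CPM in null and 34.3 and 24.1 CPM in wildtype mice, overlapping (0.53, SE 0.240, adjusted p = 0.230).

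*Sfrp1* was at 103, 181 and 157 CPM in null and 125 and 144 CPM in wildtype mice (log2 fold change 0.13, SE 0.231, adjusted p = 0.749). Its null mice lay on both sides of the wildtype mice. *Dkk2*, *Sfrp4* and *Sfrp5* also overlapped between the genotypes, with log2 fold changes of 0.30, 0.19 and 0.70. *Dkk1* was too low to test and *Dkk4* was at 0 in all mice.

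Counts per kilobase of exon (CPM per kb) put the antagonists on a scale where different genes can be compared. On it *Sfrp1* was the highest antagonist in every mouse, at a mean of 30.7 in wildtype and 33.7 in null mice. *Frzb* was at rank 2 in both wildtype mice, at a mean level of 14.6, and *Dkk3* was at 8.69. In null mice *Frzb* was at 5.84 and *Dkk3* at 12.5, and *Frzb* ranked below *Dkk3* in each of the 3, at rank 3 in 8637 and rank 4 in 9210 and 9121. The share of *Frzb* in the summed level of the 10 antagonists was 23.5% and 22.8% in wildtype mice 9055 and 9056, and 13.6%, 6.89% and 7.79% in null mice 8637, 9210 and 9121. The sum itself overlapped between the genotypes, at 50.4, 73.8 and 71.6 CPM per kb in null and 62.6 and 63.6 in wildtype mice.

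**Figure D3:**
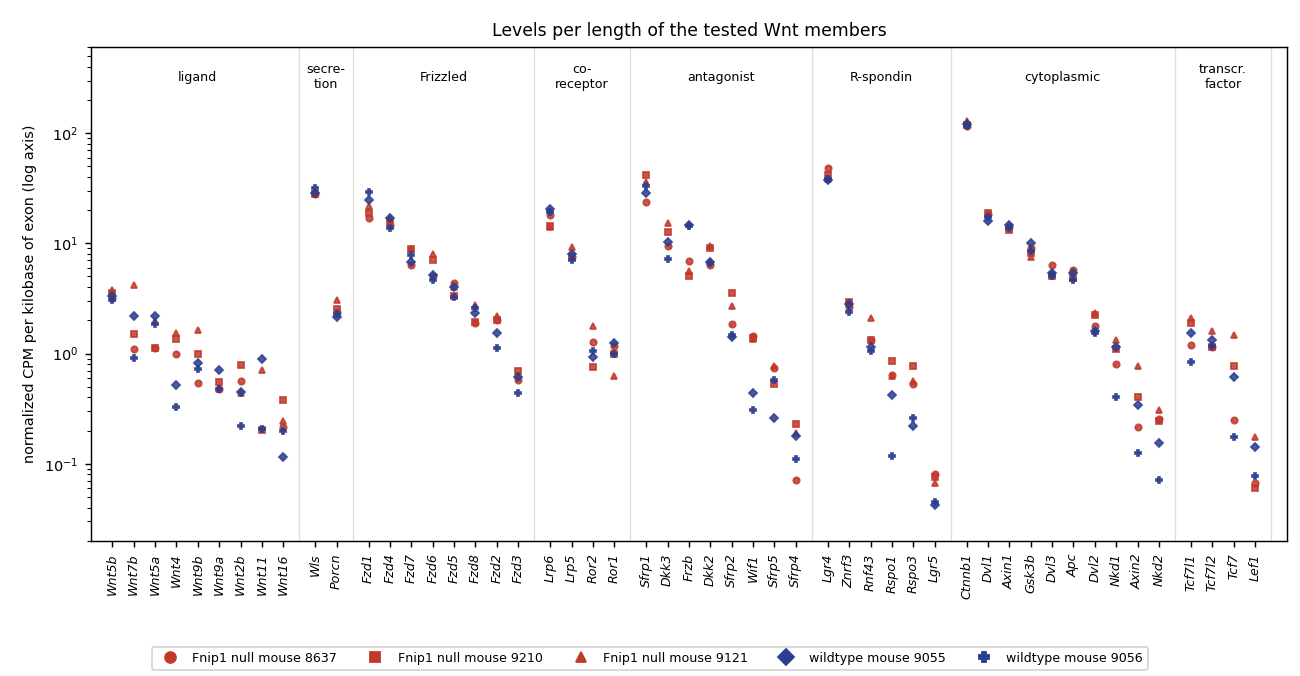
Level of the Wnt genes in each mouse (CPM per kb of exon, logarithmic axis), by role, with 1 point per mouse and genotype by color. Levels of 0 are not drawn, which leaves out *Wnt11* in mouse 8637. *Ctnnb1* was the highest of the genes, at a mean of 119 in wildtype and 121 in null mice.

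Of the 19 ligands, 9 were tested. *Wnt4*, which is needed for the mesenchyme of the embryonic kidney to form epithelial tubules, lies at chr4:137277489-137299726 on the plus strand. It was at 4.18, 5.65 and 6.39 CPM in null mice 8637, 9210 and 9121 and at 2.17 and 1.37 CPM in wildtype mice 9055 and 9056. All 3 null mice were above both wildtype mice, a fold of 3.06, with a log2 fold change of 1.61 (SE 0.308) and an adjusted p of 0.0700 by the quasi-likelihood test and 0.000771 by the exact test. The call by the quasi-likelihood test was gained without mouse 8637 (1.77, adjusted p = 0.0138). *Wnt4* made up 4.42% and 3.88% of the summed ligand level per kb in wildtype mice 9055 and 9056, and 11.7%, 12.3% and 9.62% in null mice 8637, 9210 and 9121. Collecting duct and stromal cells of the medulla are known to make *Wnt4* in adults. The collecting duct markers, 8 genes, summed higher in null mice as given above, and 6 of the 8 had a positive log2 fold change. The part of cell composition in the *Wnt4* values was not tested.

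*Wnt5b* was the highest ligand per kb in 4 of the 5 mice and *Wnt7b* in mouse 9121, while *Wnt5a* was at rank 2 in 8637, 9055 and 9056. *Wnt5b* was at 8.43, 9.33 and 10.1 CPM in null and 8.76 and 8.07 CPM in wildtype mice (log2 fold change 0.14, SE 0.154, adjusted p = 0.587). *Wnt7b*, made by the collecting duct epithelium, was at 5.36, 7.31 and 20.4 CPM in null mice 8637, 9210 and 9121 and at 10.6 and 4.46 CPM in wildtype mice 9055 and 9056 (0.56, SE 0.641, adjusted p = 0.615). The highest *Wnt7b* value of each genotype was in 9121 and in 9055, and without 9121 the change was -0.24.

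*Slc14a2*, the urea transporter of the inner medulla, was high in the same mice, at 0.825, 16.1 and 99.7 CPM in null mice 8637, 9210 and 9121 and at 81.6 and 1.89 CPM in wildtype mice 9055 and 9056. *Wnt11*, made at the tips of the branching ureteric bud in the embryo, was at 0, 0.832 and 2.90 CPM in null and 3.67 and 0.858 CPM in wildtype mice, with the same pair of mice highest as for *Slc14a2* (log2 fold change -0.80, SE 1.10, adjusted p = 0.677). These genes were chosen for mention after their values were seen. The part of the amount of medulla in each piece of tissue was not tested.

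*Wnt5a*, the main ligand of the branches that do not use beta-catenin, was at 8.78, 8.80 and 15.3 CPM in null and 17.0 and 14.4 CPM in wildtype mice, overlapping (-0.51, SE 0.274, adjusted p = 0.289). *Wnt2b*, a stromal ligand, was at 2.36, 3.33 and 1.85 CPM in null and 1.86 and 0.915 CPM in wildtype mice (0.86, SE 0.415, adjusted p = 0.253). *Wnt16* did not overlap, at 0.943, 1.66 and 1.06 CPM in null and 0.497 and 0.858 CPM in wildtype mice (0.83, SE 0.445, adjusted p = 0.292). *Wnt9b*, the collecting duct signal that acts before *Wnt4* in nephron formation, and *Wnt9a* overlapped between the genotypes, with log2 fold changes of 0.45 and -0.24. Thus 6 of the 9 ligands had a positive log2 fold change, with a median of 0.45. *Wnt1*, *Wnt3*, *Wnt3a* and *Wnt8a* had no count in any mouse, and *Wnt2*, *Wnt6*, *Wnt7a*, *Wnt8b*, *Wnt10a* and *Wnt10b* were too low to test.

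**Figure D4:**
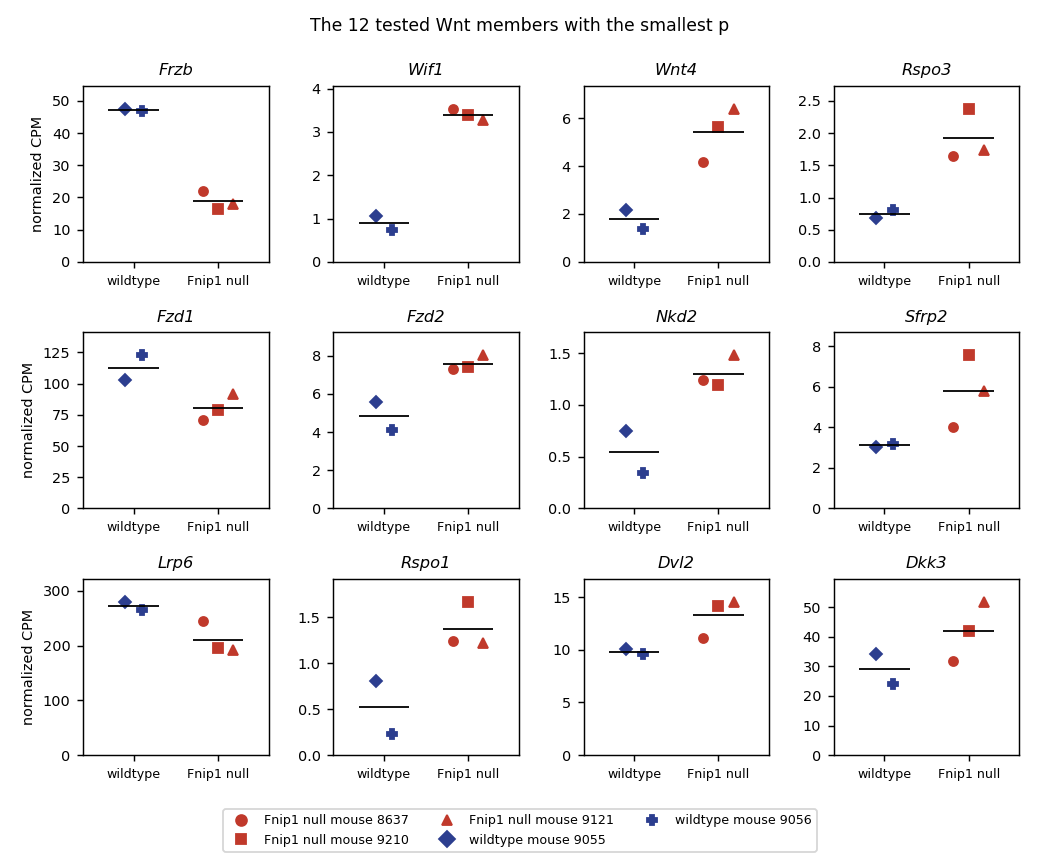
Normalized counts (CPM) in each mouse of the 12 Wnt genes with the smallest p, with the genotype mean as a line. *Frzb* is lower in the 3 *Fnip1* null mice, at 16.5 to 22.2 against 47.0 and 47.5, and *Wif1*, *Wnt4* and *Rspo3* are higher in them, without overlap.

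Neither gene of ligand secretion passed the test. *Wls*, the carrier that takes Wnts to the cell surface, was at 244, 248 and 255 CPM in null and 253 and 278 CPM in wildtype mice (log2 fold change -0.09, SE 0.0920, adjusted p = 0.557). *Porcn*, the acyltransferase that adds their lipid, was at 7.19, 7.61 and 9.24 CPM in null and 6.46 and 6.86 CPM in wildtype mice, not overlapping (0.27, SE 0.177, adjusted p = 0.384).

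Of the 10 Frizzled receptors, 8 were tested, and *Fzd9* and *Fzd10* were too low. *Fzd1* was the highest of them per kb in all 5 mice, with a mean of 26.9 CPM per kb in wildtype and 19.2 in null mice. It was at 70.8, 78.8 and 91.5 CPM in null mice 8637, 9210 and 9121 and at 103 and 123 CPM in wildtype mice, not overlapping, with a log2 fold change of -0.49 (SE 0.136, adjusted p = 0.111, and 0.0514 by the exact test). *Fzd2*, a receptor for *Wnt5a*, lay the other way, at 7.31, 7.43 and 8.03 CPM in null and 5.59 and 4.12 CPM in wildtype mice (0.65, SE 0.194, adjusted p = 0.123).

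*Fzd4*, the endothelial receptor for Norrin, was at 97.9, 104 and 114 CPM in null and 114 and 93.3 CPM in wildtype mice (0.02, SE 0.119, adjusted p = 0.916). *Fzd6*, a receptor of the planar cell polarity branch, was at 24.2, 34.1 and 38.8 CPM in null and 24.98 and 22.5 CPM in wildtype mice (0.45, SE 0.206, adjusted p = 0.234). *Fzd7* was at 28.9, 40.6 and 40.2 CPM in null and 30.9 and 35.5 CPM in wildtype mice (0.14, SE 0.173, adjusted p = 0.642). These 3 receptors overlapped between the genotypes, as did *Fzd3*, *Fzd5* and *Fzd8*, whose log2 fold changes were 0.29, 0.09 and -0.16. The summed level of the Frizzled genes was 51.7, 58.4 and 65.4 CPM per kb in null and 62.0 and 63.1 in wildtype mice.

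*Lrp6*, the co-receptor of the canonical branch, was the highest co-receptor per kb in each mouse. It was at 245, 196 and 192 CPM in null mice 8637, 9210 and 9121 and at 280 and 264 CPM in wildtype mice, all null mice below both wildtype mice (log2 fold change -0.37, SE 0.131, adjusted p = 0.159). *Lrp5*, its close relative, overlapped, at 73.9, 73.5 and 89.6 CPM in null and 78.4 and 68.2 CPM in wildtype mice (0.11, SE 0.125, adjusted p = 0.617). The receptor tyrosine kinases *Ror1* and *Ror2*, which bind *Wnt5a*, also overlapped. *Ror2* was at 5.36, 3.21 and 7.50 CPM in null and 3.98 and 4.52 CPM in wildtype mice (0.34, SE 0.357, adjusted p = 0.579), and *Ror1* had a log2 fold change of -0.27. *Frzb*, *Fzd1* and *Lrp6* were the 3 Wnt genes with every null mouse below every wildtype mouse (5.88% of the 51, beside 23% of all genes).

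In the R-spondin axis all 6 genes tested had a positive log2 fold change, with a median of 0.64, and none passed the quasi-likelihood test. *Rspo3*, an R-spondin of stromal and endothelial cells, lies at chr10:29452416-29535867 on the minus strand. It was at 1.65, 2.38 and 1.74 CPM in null mice 8637, 9210 and 9121 and at 0.683 and 0.801 CPM in wildtype mice, all null mice above both wildtype mice. The log2 fold change was 1.36 (SE 0.337), with an adjusted p of 0.0979 by the quasi-likelihood test, 0.0245 by the exact test and 0.0709 by DESeq2. The call by the quasi-likelihood test was gained without mouse 8637 (1.45, adjusted p = 0.0425). *Rspo1* was at 1.24, 1.66 and 1.21 CPM in null and 0.808 and 0.229 CPM in wildtype mice (1.41, SE 0.520, adjusted p = 0.167).

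*Lgr4* is the R-spondin receptor that prevails in this tissue, at a mean of 37.9 CPM per kb in wildtype and 42.7 in null mice. It was at 284, 246 and 224 CPM in null and 220 and 226 CPM in wildtype mice, overlapping (log2 fold change 0.17, SE 0.122, adjusted p = 0.409). *Lgr5*, the stem cell receptor of gut and hair follicle, was low, at 0.825, 0.773 and 0.686 CPM in null and 0.435 and 0.458 CPM in wildtype mice, without overlap (0.76, SE 0.405, adjusted p = 0.291).

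*Rnf43*, a ligase that removes Frizzled and is itself a target of the pathway, was at 8.78, 8.62 and 13.7 CPM in null and 7.58 and 6.92 CPM in wildtype mice, without overlap (0.52, SE 0.248, adjusted p = 0.248). Its relative *Znrf3* was at 21.0, 23.2 and 22.4 CPM in null and 22.1 and 19.0 CPM in wildtype mice (0.11, SE 0.121, adjusted p = 0.584). *Lgr6* was too low to test, and *Rspo2* and *Rspo4* were at 0 in all mice.

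*Rspo3*, *Rspo1*, *Wnt2b* and *Sfrp2* are known from stromal, vascular or mesothelial cells. They are not a full list of such genes, and each had a positive log2 fold change. *Fzd4*, given above as endothelial, had a log2 fold change of 0.02 and overlapped between the genotypes. The fibroblast and mural markers, 11 genes, all had a positive log2 fold change, with summed levels of 383 to 707 CPM in null and 221 to 356 CPM in wildtype mice. The endothelial markers, 8 genes, were also all positive, with sums of 470 to 615 CPM in null and 269 to 452 CPM in wildtype mice. Neither sum overlapped between the genotypes. The sum of the adipocyte markers given above did not overlap either, but in mouse 8637 it was mostly *Fabp4*. The part of such cells in the values of these genes was not tested.

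The cytoplasmic genes had the highest summed level per kb of the 8 roles in every mouse, and none passed the test. *Ctnnb1*, which encodes beta-catenin, was at 604, 619 and 663 CPM in null and 634 and 605 CPM in wildtype mice (log2 fold change 0.02, SE 0.113, adjusted p = 0.925), and made up 67.1% to 69.8% of the summed level of its role in each mouse. *Axin1*, the scaffold of the destruction complex, was at 54.2, 51.0 and 54.2 CPM in null and 56.4 and 52.3 CPM in wildtype mice (-0.03, SE 0.0882, adjusted p = 0.846). *Apc* and *Gsk3b*, its partners in that complex, had log2 fold changes of 0.06 and -0.16 and overlapped between the genotypes.

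Of the Dishevelled genes, *Dvl1* was at 92.9, 94.3 and 91.3 CPM in null and 79.2 and 87.1 CPM in wildtype mice, without overlap (0.16, SE 0.0851, adjusted p = 0.292). *Dvl2* was at 11.1, 14.2 and 14.6 CPM in null and 10.1 and 9.61 CPM in wildtype mice, also without overlap (0.44, SE 0.166, adjusted p = 0.176). Of the *Dvl2* exon bases 19.7% overlap other counted genes, chiefly *Acadvl* on the opposite strand, and reads of the pair cannot be told apart there without strand. The same holds for 15.1% of the *Ctnnb1* exon bases, which overlap *Ulk4* and a microRNA gene. *Dvl3* overlapped between the genotypes (0.09).

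*Nkd2*, which binds Dishevelled and restrains the pathway, was at 1.24, 1.19 and 1.48 CPM in null and 0.746 and 0.343 CPM in wildtype mice, without overlap (1.27, SE 0.423, adjusted p = 0.144). *Axin2*, the most used readout of canonical signaling, was at 1.18, 2.20 and 4.28 CPM in null mice 8637, 9210 and 9121 and at 1.86 and 0.686 CPM in wildtype mice (1.03, SE 0.652, adjusted p = 0.364). The highest and the lowest null mouse of *Axin2* lay on either side of wildtype mouse 9055, and its change ran from 0.42 without 9121 to 1.89 without 9055. *Nkd1*, another feedback target, also overlapped (0.48).

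The transcription factors of the pathway were low and overlapped between the genotypes. *Tcf7l1*, mostly a repressor, was at 4.71, 7.37 and 8.29 CPM in null and 6.03 and 3.26 CPM in wildtype mice (0.55, SE 0.350, adjusted p = 0.361). *Tcf7l2* was at 10.1, 9.99 and 14.05 CPM in null and 11.7 and 10.3 CPM in wildtype mice (0.05, SE 0.197, adjusted p = 0.887). *Tcf7* was at 0.648, 2.02 and 3.85 CPM in null and 1.62 and 0.458 CPM in wildtype mice (1.10, SE 0.810, adjusted p = 0.429), and *Lef1* had a log2 fold change of -0.09.

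Over all roles, 39 of the 51 genes tested had a positive log2 fold change (76.5%, beside 50.5% of all genes tested), with a median of 0.19 beside 0.0035 for all genes. Scaled by library size alone, which moved the median of all genes to 0.17, the count was 43 of 51, beside 72.9%, and the median 0.36. With 1 mouse left out, 15 of the 51 genes changed sign under at least 1 of the 5 omissions and 36 did not. The count ran from 32 without wildtype mouse 9056 to 43 without wildtype mouse 9055. The positive direction was seen in 6 of 6 R-spondin axis genes, 7 of 8 antagonists, 8 of 10 cytoplasmic genes, 6 of 8 Frizzled receptors, 3 of 4 transcription factors and 2 of 4 co-receptors.

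Null and wildtype mice did not overlap for 16 of the 51 genes, beside 45.9% of all genes tested. In 13 of them the null mice were above (25.5%, beside 22.9%) and in 3 below (5.88%, beside 23%). The share without overlap was thus lower among the Wnt genes than among all genes, and the shortfall lay in genes lower in null mice. Mouse 9121 was the highest of the 5 mice for 23 of the 51 genes (45.1%, beside 25.9% of all genes), and wildtype mouse 9056 was the lowest for 22 (43.1%, beside 25.6%).

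A list of 108 further genes of the pathway was examined, of which 97 were tested. By the quasi-likelihood test 2 of these passed an FDR of 5%, beside 0.678% of all genes, and neither reached a 2-fold change. *Sostdc1*, a secreted antagonist of Wnt and BMP signals made by distal tubules, was at 156, 175 and 187 CPM in null mice 8637, 9210 and 9121 and at 96.7 and 87.1 CPM in wildtype mice (log2 fold change 0.91, SE 0.113, adjusted p = 0.0410). *Ccnd1*, the G1 cyclin and a classic target of beta-catenin as well as of many growth signals, was at 555, 572 and 567 CPM in null and 330 and 276 CPM in wildtype mice (0.90, SE 0.120, adjusted p = 0.0454). Both rose in null kidney, with no overlap. At an unadjusted p under 0.05 there were 29 of the 97 (29.9%, beside 25.1% of all genes).

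The exact test called 12 of the 97 at an FDR of 5% (beside 9.77% of all genes), 9 higher and 3 lower in null mice. Among the higher were *Sostdc1*, *Ccnd1*, the growth factor *Fgf9*, the glypican *Gpc3*, the Dishevelled antagonist *Dact2*, the kinase *Csnk1e*, the AP-1 subunit *Jun* and the mural cell receptor *Pdgfrb*. *Gpc3* was at 35.2, 50.4 and 36.4 CPM in null and 21.4 and 17.96 CPM in wildtype mice (log2 fold change 1.05), with an adjusted p of 0.0664 by the quasi-likelihood test.

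*Fgf9* was at 26.6, 30.4 and 29.0 CPM in null and 17.1 and 17.7 CPM in wildtype mice (0.72), and *Dact2* at 35.9, 41.4 and 42.5 against 23.1 and 27.3 CPM (0.66). *Csnk1e* was at 17.3, 24.4 and 22.2 against 12.3 and 10.2 CPM (0.92). *Jun* was at 49.1, 49.9 and 61.9 against 36.3 and 28.5 CPM (0.73), and *Pdgfrb*, itself on the mural marker list, at 50.2, 61.5 and 64.3 against 42.5 and 29.7 CPM (0.70). None of these groups overlapped.

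The 3 lower genes by the exact test included both a transcription factor and an enzyme that canonical signaling is known to induce. *Sp5*, a repressor of the feedback type, was at 11.8, 10.3 and 9.24 CPM in null and 18.6 and 19.2 CPM in wildtype mice (log2 fold change -0.85, SE 0.145, adjusted p = 0.000485 by the exact test and 0.0635 by the quasi-likelihood test). *Notum*, which strips the lipid from Wnts, was at 16.4, 8.38 and 11.6 CPM in null and 23.0 and 29.1 CPM in wildtype mice (-1.10, SE 0.276, adjusted p = 0.00648 and 0.0985). *Vangl1*, a core gene of planar cell polarity, was at 28.7, 21.6 and 21.4 against 35.2 and 35.9 CPM (-0.57, SE 0.153, adjusted p = 0.0323 and 0.105). The feedback targets of the canonical branch therefore lay on both sides, with *Sp5* and *Notum* below and *Axin2*, *Nkd1*, *Rnf43* and *Lgr5* at positive log2 fold changes of 0.48 to 1.03 that did not pass either test.

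Of the pathway genes past an FDR of 5% by neither test, the 6 with the smallest p were *Apc2* (0.86), *Tle1* (0.53), *Bambi* (0.61), *Prickle2* (0.85), *Cd44* (1.56) and *Intu* (-0.35). *Cd44*, a hyaluronan receptor counted among Wnt targets and known from injured tubules and leukocytes, was at 2.77, 5.17 and 6.39 CPM in null and 2.42 and 0.858 CPM in wildtype mice. Of the 21 target genes of the list tested, 18 had a positive log2 fold change, with a median of 0.70, while of the 19 nuclear cofactors 5 did, with a median of -0.06. Over the 97 genes 52 were positive (53.6%, beside 50.5%). The tubular injury markers summed higher in all null mice, a sum that was mostly *Spp1*. The leukocyte markers summed to 148 to 318 CPM in null and 128 to 156 CPM in wildtype mice, overlapping, though 12 of the 13 tested had a positive log2 fold change. The part of injury and of leukocytes in the values of the target genes was not tested.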

How the data were processed

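RNAseq libraries were prepared by the authors from total RNA of frozen kidney cortex with a TruSeq kit that is not stated to keep strand, and sequenced in pairs. Reads were filtered for quality and aligned to mm10 with TopHat 2.1.0, and HTSeq 0.6.1 gave the deposited counts, which are raw counts per gene symbol without normalization. Reads placed at several positions (28.3% to 31.4% of all read counts) or in no gene (9.91% to 10.8%) stayed out of library sizes.

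The filter on low counts let at most 2 of the 5 mice fall below 10 counts for a gene to be kept. TMM normalization and the quasi-likelihood test of edgeR 4.0.16 (limma 3.58.1, R 4.3.3) compared all 3 null with both wildtype mice without covariates, with p-values adjusted by Benjamini-Hochberg over all 13874 genes kept. Calls needed an FDR of 5% and a 2-fold change. The edgeR exact and likelihood ratio tests and DESeq2 1.42.0 were alternatives, beside other normalizations, filters, thresholds and leaving out each mouse. The scripts were tested on simulated data. Standard errors were computed as the log2 fold change over the square root of its F statistic, and single-mouse CPM are TMM-normalized. An exact permutation test of 3 against 2 mice cannot go below p = 0.1, so none was used per gene.

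Levels per kb use the union of exons in GENCODE M21 (GRCm38), matched by symbol for all 68 genes. Promoter sequences are from RefSeq on GRCm38.p6. The Wnt genes, the pathway list and the marker lists were chosen with earlier results of these data known. Values in each mouse are given for genes past an FDR of 5% by the quasi-likelihood or exact test, the 15 further Wnt genes with the smallest p, the 3 highest per kb in each role, and the 6 further pathway genes with the smallest p. One pathway gene that this rule names is not reported here.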

Additional observations from a re-analysis of the deposited data

How the results depend on the processing

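The number of Wnt genes past an FDR of 5% and a 2-fold change was 2 by the quasi-likelihood test (beside 0.526% of all genes), 4 by the exact test (4.07%), 4 by the likelihood ratio test (4.53%), 4 at an FDR of 10% (2.57%), and 1 with the legacy quasi-likelihood method (0.533%) and with no filter on low counts (0.499%). Leaving out 1 mouse gave 0 to 5, with 0 without 9210, 9055 or 9056 where no gene was called, and 5 without 8637 (6.82%). For the further pathway genes the number was 0, and, beside the same shares of all genes, it was 3 by the exact test, the likelihood ratio test, DESeq2 (3.55%) and at an FDR of 10%, 2 with library size scaling (0.613%) and at an FDR of 5% with no fold minimum (0.678%), and 0 to 7 with 1 mouse left out. The number of Wnt genes with a positive log2 fold change, a measure added after the data were seen, ran from 32 to 43 with 1 mouse left out. With library size scaling 43 of the 51 genes had a positive log2 fold change, in place of 39. Among those that changed sign were *Wls*, at 0.0737, and *Axin1*, at 0.13, in place of negative values. With 1 mouse left out, 15 of the 51 genes changed sign. Among them, *Wnt7b* ran from -0.24 to 1.30, *Fzd4* from -0.11 to 0.17, *Sfrp1* from -0.0433 to 0.34, *Ctnnb1* from -0.0187 to 0.0499, *Axin1* from -0.0898 to 0.0192 and *Tcf7l2* from -0.13 to 0.14. Of the others, *Wnt11* and *Lef1* ran from -2.41 to 0.56 and from -0.76 to 0.38, and *Apc*, *Dvl3*, *Fzd5*, *Nkd1*, *Sfrp4*, *Wnt9a* and *Wnt9b* also changed sign. The cause of these changes was not tested. No paired analysis was possible because the labels give each mouse its own number and the genotypes share none. Of the 17 genes not tested, 7 had no count in any mouse, and the other 10 had too few at this depth, with a highest count of 16. Having 2 wildtype mice limits every p-value.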
